A study of Mus musculus with 9 samples.

Results

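The genes described here encode the receptors through which cells read bone morphogenetic proteins (BMPs), the SMAD proteins that carry the signal to the nucleus, and the inhibitors that damp it. The 10 genes were chosen by name: the type I receptors Bmpr1a, Bmpr1b and Acvr1, the type II receptor Bmpr2, the receptor-regulated SMADs Smad1, Smad5 and Smad9, the inhibitory SMADs Smad6 and Smad7, and the pseudoreceptor Bambi. They are 10 of the 47729 genes with a value. Of them, 9 reached the mean of 0.1 FPKM (reads scaled for gene length and for the reads mapped in the library) that was required for the test, among 17951 genes in all, and Smad9 did not.

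RNA was sequenced from mouse embryonic stem cells (ESCs) kept in LIF/serum, all of which carried a doxycycline (dox)-inducible cassette for a forced homodimer of E2A. E2A is an E protein, a basic helix-loop-helix transcription factor encoded by Tcf3, and in the forced homodimer an E47 protein is tethered by a linker to a further copy of itself. The cassette sits upstream of Hprt. The 3 groups were cells without dox (0 h) and cells given 1 µg/ml dox for 18 h or 24 h, with 3 libraries in each, and cells without the cassette that received dox were not analysed here. Each library held between 22028363 and 26471569 reads on the 19210 genes that the authors kept after filtering. Tcf3, whose reads include those of the cassette, was at 39.1±1.80 FPKM before dox, 110.1±5.52 after 18 h and 102±7.55 after 24 h (mean±s.d., n=3), and Hprt was at 11.4±1.92, 40.97±3.49 and 48.2±4.07 FPKM. Both were upregulated at both times, by 1.49 and 1.38 on the log2 scale for Tcf3 (adjusted p=2.37e-05 and 3.11e-05) and by 1.85 and 2.08 for Hprt (adjusted p=0.000131 and 5.83e-05).

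BMP ligands bring type I and type II receptors together, and the type II receptor then phosphorylates the type I receptor. The activated type I receptor phosphorylates a receptor-regulated SMAD, which joins the common partner SMAD4, enters the nucleus and binds DNA. Inhibitory SMADs block the receptors or compete for SMAD4, Bambi lacks a kinase domain and blocks receptor complexes, and the genes for these inhibitors are themselves classical targets of the pathway. In mouse ESCs, BMP signalling together with LIF supports self-renewal, and it opposes neural differentiation.

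Smad5 was upregulated at 18 h and 24 h and Smad6 at 24 h, each by less than 2-fold, though the calls for Smad5 at 18 h and Smad6 were lost on leaving out single libraries, and the other 7 tested genes, among them all 4 receptors, did not pass the test without a replicate block. With the block Bmpr2 passed at both times as well, with lower adjusted p values than Smad6. A gene passed when its p in limma, on log2(FPKM+0.1) and after Benjamini-Hochberg adjustment over all 17951 genes, was 0.05 or lower. At 18 h, 1 of the 9 tested genes was higher and 0 were lower, against 4.27% and 3.72% of all genes tested. At 24 h, 2 of 9 were higher and 0 lower, against 6.52% and 5.11% of all genes. With a library left out, the count was 0 or 1 at 18 h and 1 at 24 h, since Smad6 then no longer passed. The median log2 fold-change of the 9 genes was 0.09 at 18 h and 0.19 at 24 h, beside medians of -0.003 and 0.004 over all genes. None of the 9 passed with a 2-fold change at either time, whereas 2.06% of all genes did so at 18 h and 2.9% at 24 h. The 18 h and 24 h comparisons share the 0 h libraries.

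Replicate numbers paired the libraries, so that the test was also made with replicate as a block. With the block, 2 of the 9 genes were higher at 18 h and 4 at 24 h, Bmpr2 being added at both times and Bmpr1a at 24 h, and 0 were lower in limma. Over all genes the block raised the share higher to 10.8% at 18 h and 13.6% at 24 h, and the share lower to 10.7% and 12.5%. In edgeR with the block, on reads of 19210 genes and with Smad9 tested too, 3 of 10 were higher and 0 lower at 18 h, and 5 were higher and 1, Smad7, lower at 24 h. The shares of all genes in that fit were 13.9% higher and 13.1% lower at 18 h and 16.4% and 14.9% at 24 h. By ranges alone, 2 of the 9 genes at 18 h and 3 at 24 h had every dox library above every 0 h library, against 14.4% and 16.7% of all genes, and 0 had every dox library below, against 13.7% and 14.6%.

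**Figure D1:**
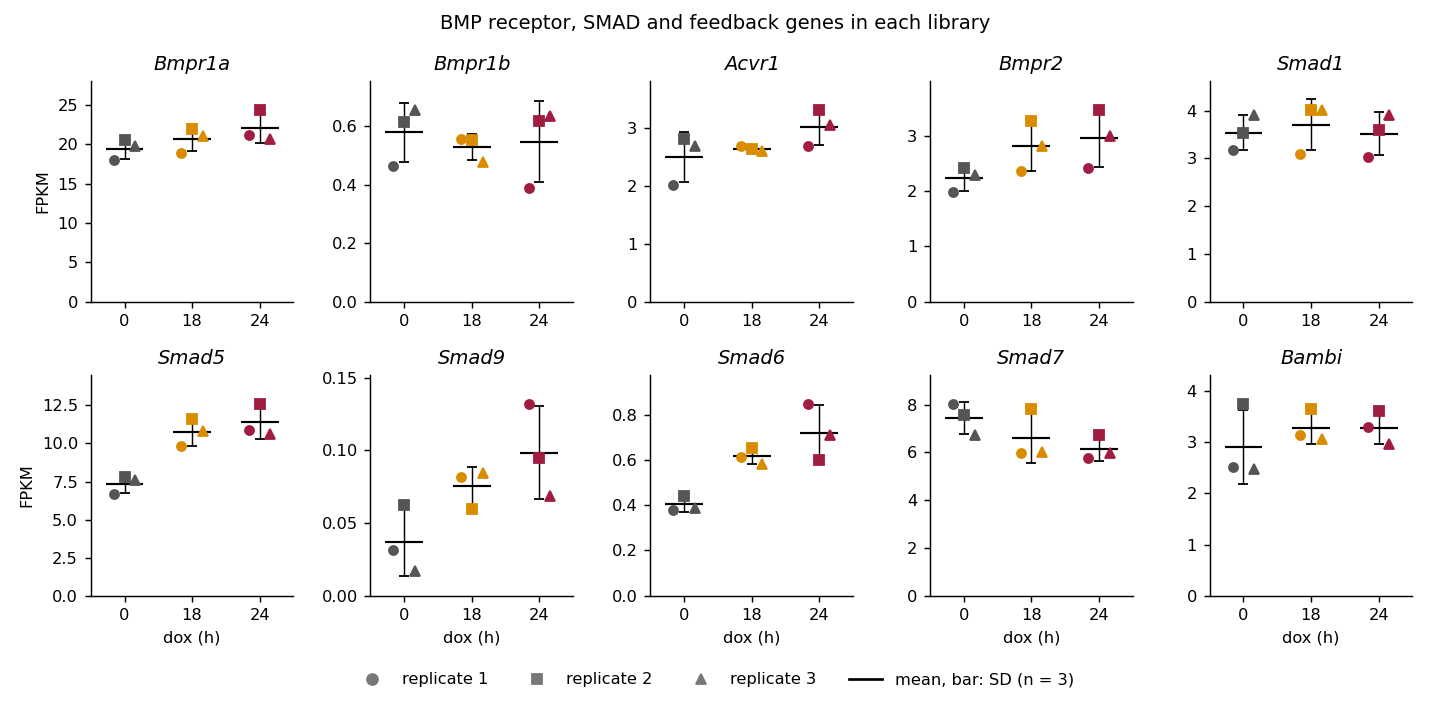
Level of each of the 10 genes in FPKM (vertical axis, from 0, with its own scale in each panel) after 0, 18 and 24 h of dox (horizontal axis). Symbols are the 3 replicates, and horizontal and vertical lines are the mean and the s.d. The dox libraries of Smad5 and Smad6 lie above all of their 0 h libraries, and those of Smad1 and Bmpr1b overlap with them.

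Before dox, the levels per length spanned from 19.4 FPKM for Bmpr1a to 0.0368 for Smad9. Bmpr1a was followed by Smad7 at 7.44 and Smad5 at 7.37 FPKM, whose ranges over the 3 libraries overlapped. Smad1, Bambi, Acvr1 and Bmpr2 came next at 3.54, 2.92, 2.501 and 2.23 FPKM, and in that order each overlapped with its neighbour. Bmpr1b at 0.578, Smad6 at 0.403 and Smad9 were the lowest, and their ranges did not overlap. After dox the order changed in some places. Smad5, at 10.7 FPKM at 18 h and 11.4 at 24 h, then lay apart above Smad7, at 6.59 and 6.16 FPKM. Smad6 lay apart above Bmpr1b at 18 h, at 0.615 against 0.529 FPKM, and overlapped with it at 24 h.

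Among the type I receptors, Bmpr1a (ENSMUSG00000021796, chr14:34410734-34503341 of GRCm38, minus strand) was the main transcript. This receptor binds BMP2 and BMP4 and is needed for gastrulation in the mouse embryo. Its level was 17.9, 20.6 and 19.8 FPKM in replicates 1, 2 and 3 at 0 h, 18.9, 21.9 and 21.0 after 18 h and 21.2, 24.4 and 20.7 after 24 h. Every 24 h library exceeded every 0 h library, by a narrow margin, and the 18 h libraries overlapped with them. Its log2 fold-change amounted to 0.09±0.0867 (s.e.) at 18 h (adjusted p=0.580) and 0.18±0.0867 at 24 h (95% interval -0.01 to 0.38, adjusted p=0.204). With the replicate block Bmpr1a passed at 24 h (adjusted p=0.0367) and did not at 18 h (0.267). The annotated gene Gm17110 lies on the opposite strand across an exon of Bmpr1a, and how strand entered the counting is not given in the sources used here.

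Bmpr1b (ENSMUSG00000052430, chr3:141837136-142169425, minus strand), a related type I receptor known from cartilage and the ovary, was the lowest of the receptors. It had 0.464, 0.615 and 0.656 FPKM at 0 h, 0.557, 0.552 and 0.478 after 18 h and 0.389, 0.618 and 0.634 after 24 h, from 59 to 103 reads per library. The groups overlapped throughout, and the lowest value of all was replicate 1 at 24 h. Log2 fold-changes were -0.10±0.217 and -0.08±0.217 (adjusted p=0.811 and 0.847), with 95% intervals from -0.59 to 0.39 and from -0.57 to 0.41, which leave room for changes of the size seen in Smad5 at 18 h only in the downward direction.

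Acvr1 (ENSMUSG00000026836, chr2:58388644-58567157, minus strand) encodes ALK2, a type I receptor for BMP6 and BMP7. Its levels were 2.01, 2.81 and 2.69 FPKM at 0 h, 2.69, 2.63 and 2.60 after 18 h and 2.69, 3.31 and 3.04 after 24 h. Replicate 1 at 0 h was the lowest library, and the other 0 h libraries lay within the range of the dox libraries. On the log2 scale Acvr1 differed from 0 h by 0.09±0.137 after 18 h (adjusted p=0.721) and 0.27±0.137 at 24 h (95% interval -0.04 to 0.58, adjusted p=0.234). Bmpr1a made up 86.4% of the summed FPKM of these 3 type I receptors at 0 h, 86.6% at 18 h and 86.1% at 24 h.

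Bmpr2 (ENSMUSG00000067336, chr1:59763400-59879014, plus strand) encodes the type II receptor that is dedicated to BMPs. It was at 1.98, 2.42 and 2.30 FPKM at 0 h, 2.36, 3.28 and 2.81 after 18 h and 2.41, 3.47 and 2.9996 after 24 h. Within each replicate number the dox libraries were higher than the 0 h library, while over all libraries the ranges overlapped, with replicate 1 low at every time. For Bmpr2 the difference from 0 h was 0.31±0.163 on the log2 scale at 18 h (adjusted p=0.265) and 0.38±0.163 at 24 h (95% interval 0.01 to 0.75, adjusted p=0.163). With the replicate block Bmpr2 passed at both times (adjusted p=0.0288 and 0.0124).

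**Figure D2:**
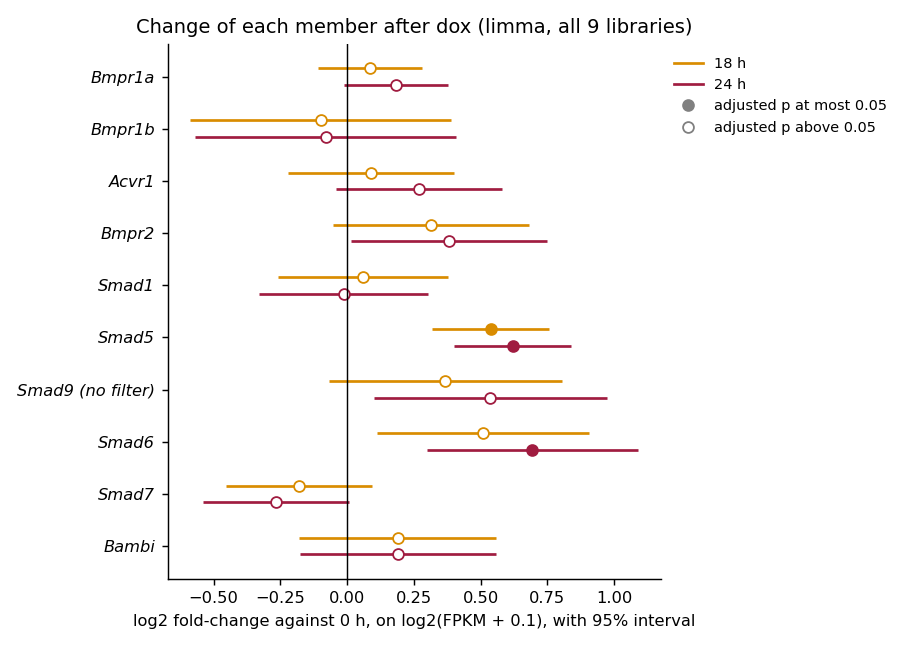
Log2 fold-change against 0 h on the log2(FPKM+0.1) scale (horizontal axis) of each of the 10 genes at 18 h and 24 h, with 95% intervals from limma as horizontal lines. Filled points have an adjusted p of at most 0.05, which holds for Smad5 at both times and Smad6 at 24 h, and Smad9 is taken from a fit with no minimum FPKM.

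Smad5 (ENSMUSG00000021540, chr13:56703010-56742377, plus strand) was the most abundant of Smad1, Smad5 and Smad9, the receptor-regulated SMADs described here, at each time. It carries BMP signals alongside Smad1, and mouse embryos need it for vascular and amnion development. Its level was 6.65, 7.83 and 7.62 FPKM in the 0 h replicates, 9.82, 11.6 and 10.8 after 18 h and 10.9, 12.6 and 10.6 after 24 h, with 1177 to 2386 reads behind each value. All 6 dox libraries were above all 3 of the 0 h libraries, and the 18 h and 24 h libraries overlapped. Smad5 was upregulated by 0.54±0.0972 on the log2 scale at 18 h (95% interval 0.32 to 0.76, adjusted p=0.0132) and by 0.62±0.0972 at 24 h (0.40 to 0.84, adjusted p=0.00594). The 18 h call was lost without replicate 2 at 18 h (adjusted p=0.0575) and without replicate 3 at 18 h (0.0552), whereas the 24 h call was kept with each of the 6 libraries compared left out in turn (adjusted p 0.0102 to 0.0261). These fits had no block. With the replicate block and all libraries, Smad5 passed in limma at 18 h (adjusted p=0.00184) and 24 h (0.000894). The annotated gene Gm27301 lies on the same strand across an exon of Smad5, so reads there cannot be assigned to Smad5 alone.

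The sequences upstream of Smad5 and Smad6 are shown because these were the genes that passed the test without the replicate block, in cells with an E protein induced. E proteins bind the E-box, CANNTG, of which CAGGTG is a form that E47 dimers favour, and SMAD1 and SMAD5 bind GC-rich elements such as GGCGCC and GGAGCC. These 4 motifs were searched on both strands, and CAGGTG is contained in CANNTG. RefSeq sequence of GRCm38.p6 was used, cut to the 250 bases before each start site, for 8 of the 10 genes with 12 windows. Entries for Smad7 and Bambi are missing. Smad5 is shown from chr13:56702760-56703009 on the plus strand and Smad6 from chr9:64022060-64022309 on the minus strand, both 5′ to 3′, ending at the base before the start site, with matches in capitals.
Smad5: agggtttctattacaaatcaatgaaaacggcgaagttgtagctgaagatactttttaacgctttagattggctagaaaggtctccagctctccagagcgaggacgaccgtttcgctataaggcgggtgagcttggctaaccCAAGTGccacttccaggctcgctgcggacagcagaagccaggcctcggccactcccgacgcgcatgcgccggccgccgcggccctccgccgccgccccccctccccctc
Smad6: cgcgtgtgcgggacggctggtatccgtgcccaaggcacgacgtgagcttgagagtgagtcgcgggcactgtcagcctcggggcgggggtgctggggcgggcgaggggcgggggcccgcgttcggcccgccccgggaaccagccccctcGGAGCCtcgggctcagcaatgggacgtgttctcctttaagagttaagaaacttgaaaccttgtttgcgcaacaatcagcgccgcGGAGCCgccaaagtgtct
The window of Smad5 that is shown, 1 of 3, holds an E-box, CAAGTG, from 109 to 104 bases before the start site. The others begin at later start sites, and the second, which overlaps with the one shown, holds the same E-box and GGCGCC at 19 to 14 bases before its own start site, while the third holds GGCTCC, the reverse complement of GGAGCC, at 117 to 112. That of Smad6 holds GGAGCC at 102 to 97 and at 18 to 13 bases before the start site and no CANNTG. Neither window holds CAGGTG, nor do the other windows of Smad5. The windows of Bmpr2 and Bmpr1a, which passed with the block, are not shown and hold GGCGCC and no CANNTG. The E-box letters CANNTG were present in 5 of the 12 windows of these genes, CAGGTG in 2, GGCGCC in 4 and GGAGCC in 6. Over all 32851 promoter windows of the same length the shares were 66.2%, 17.2%, 9.59% and 26.0%. Several windows of a gene overlap, and a match describes the letters only.

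Smad1 (ENSMUSG00000031681, chr8:79338395-79399518, minus strand), the close relative of Smad5 that is phosphorylated by the same receptors, did not pass the test at either time. It was at 3.17, 3.54 and 3.92 FPKM at 0 h, 3.09, 4.02 and 4.01 after 18 h and 3.03, 3.60 and 3.92 after 24 h. The groups covered nearly the same range, with replicate 1 the lowest each time. Smad1 differed from 0 h by 0.06±0.141 on the log2 scale at 18 h (95% interval -0.26 to 0.38, adjusted p=0.827) and -0.01±0.141 at 24 h (-0.33 to 0.30, adjusted p=0.965), and the whole of the latter interval lies below the lower bound of 0.40 for Smad5 at 24 h. A test of the difference between these genes was not made.

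Smad9 (ENSMUSG00000027796, chr3:54755582-54801257, plus strand), also called Smad8, is the receptor-regulated SMAD with the weakest transcriptional activity. It gave 4, 8 and 2 reads at 0 h, 10, 8 and 11 after 18 h and 18, 13 and 10 after 24 h, or 0.0312, 0.0621 and 0.0171, then 0.0815, 0.0598 and 0.0847, then 0.132, 0.0949 and 0.0684 FPKM. Every 24 h library was above every 0 h library, with one 0 h library under the 3 reads taken as the counting floor. In the fit with no minimum FPKM, Smad9 differed from 0 h by 0.37±0.191 on the log2 scale after 18 h (adjusted p=0.356) and 0.54±0.191 at 24 h (95% interval 0.10 to 0.97, adjusted p=0.152). On this scale the pseudocount of 0.1 exceeds most of its values and understates its change. On reads, edgeR gave 1.37 at 24 h (adjusted p=0.0794), and with the replicate block 1.37 (adjusted p=0.0421). DESeq2 gave 1.39 at 24 h (adjusted p=0.136). In limma with no minimum FPKM and with the replicate block, Smad9 did not pass at 18 h (adjusted p=0.311) or at 24 h (0.132).

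The summed FPKM of Smad1, Smad5 and Smad9 was 10.9±0.950 at 0 h, 14.5±1.37 at 18 h and 14.99±1.16 at 24 h (mean±s.d., n=3). The share of Smad5 in it was 67.3±1.28% at 0 h, 74.01±1.55% at 18 h and 75.9±2.69% at 24 h. Smad5 thus made up about the same large part of the sum at both dox times, and a larger one than at 0 h. Values of such sums are descriptions and were not tested. In RNA from whole cultures, a smaller number of cells with a transcript and less of it per cell cannot be told apart, nor can their opposites.

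Smad6 (ENSMUSG00000036867, chr9:63953076-64022059, minus strand) encodes the inhibitory SMAD that acts mainly on BMP receptors and SMAD1, and it was upregulated at 24 h from a low level. It was at 0.379, 0.442 and 0.387 FPKM at 0 h, 0.614, 0.651 and 0.580 after 18 h and 0.847, 0.599 and 0.710 after 24 h, with 27 to 34 reads per library at 0 h, 45 to 52 at 18 h and 49 to 69 at 24 h. All dox libraries were above all 0 h libraries, and the 18 h range lay partly inside the 24 h range. Against 0 h its log2 fold-change was 0.51±0.176 at 18 h (95% interval 0.11 to 0.91, adjusted p=0.111) and 0.69±0.176 at 24 h (0.30 to 1.09, adjusted p=0.0364). The 18 h value passed with no intensity trend (adjusted p=0.0497) and in edgeR with the replicate block (0.0459). On recovered reads the 24 h value was 0.82 in edgeR (adjusted p=0.0246) and 0.82 in DESeq2 (adjusted p=0.0270). The call at 24 h was lost whichever of the 6 libraries compared was left out (adjusted p 0.0509 to 0.107), although the log2 fold-change stayed between 0.58 and 0.80. It was also lost with no filter on FPKM (0.0791), after quantile normalization (0.0577) and when the 18 h libraries were kept out of the fit (0.0878). These fits had no block. With the replicate block and all libraries, Smad6 passed at 24 h in limma (adjusted p=0.0239) and edgeR (0.00572), and did not pass in limma at 18 h (0.0726).

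Smad7 (ENSMUSG00000025880, chr18:75367529-75395935, plus strand), the inhibitory SMAD that acts on BMP, activin and TGFβ receptors alike, was the more abundant of the pair. Its levels were 8.03, 7.58 and 6.71 FPKM at 0 h, 5.96, 7.81 and 6.01 after 18 h and 5.76, 6.74 and 5.99 after 24 h. At 24 h, replicates 1 and 3 lay below all 0 h libraries and replicate 2 lay just above the lowest of them. Within each replicate number the 24 h library was lower than the 0 h library. The difference from 0 h on the log2 scale was -0.18±0.121 at 18 h (95% interval -0.45 to 0.09, adjusted p=0.395) and -0.27±0.121 at 24 h (-0.54 to 0.01, adjusted p=0.185), so that Smad7 did not pass. In edgeR with the replicate block it passed at 24 h, at -0.28 (adjusted p=0.0138). Of the FPKM of both inhibitory SMADs, Smad6 made up 5.16% before dox, 8.62% after 18 h and 10.5% after 24 h.

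The summed FPKM of Smad6 and Smad7 was 7.84±0.672 before dox, 7.21±1.09 after 18 h and 6.88±0.395 after 24 h. Divided by the sum of Smad1, Smad5 and Smad9 in the same library, this gave a ratio of 0.723±0.121 before dox, 0.496±0.0497 after 18 h and 0.459±0.0103 after 24 h. The ratio ranged from 0.615 to 0.854 in the 0 h libraries, from 0.443 to 0.541 at 18 h and from 0.450 to 0.470 at 24 h, so the dox libraries lay below the 0 h libraries. Its numerator is mostly Smad7 and its denominator mostly Smad5, and the ratio is a description of transcripts with no test.

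**Figure D3:**
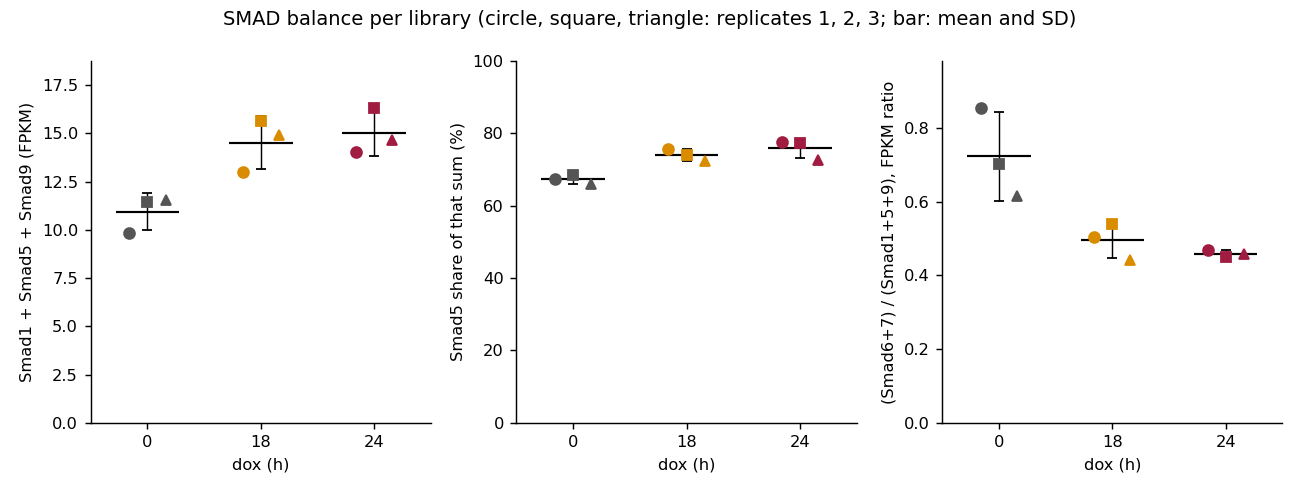
SMAD transcripts in each library after 0, 18 and 24 h of dox (horizontal axes), as the summed FPKM of Smad1, Smad5 and Smad9, the share of Smad5 in that sum in percent, and the FPKM ratio of Smad6 plus Smad7 to that sum. Symbols are replicates, lines the mean and s.d. The ratio is at least 0.615 in the 0 h libraries and at most 0.541 in the dox libraries.

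Bambi (ENSMUSG00000024232, chr18:3507923-3516404, plus strand) was at 2.52, 3.75 and 2.47 FPKM at 0 h, 3.14, 3.65 and 3.07 after 18 h and 3.30, 3.61 and 2.97 after 24 h. Replicate 2 at 0 h was the highest of all the libraries and the other 0 h replicates were the lowest, so the 0 h group spanned all the dox values. The log2 fold-change was 0.19±0.163 at 18 h and 0.19±0.163 at 24 h, both with a 95% interval from -0.18 to 0.56 (adjusted p=0.511 and 0.483). Without replicate 2 at 0 h the values were 0.38 and 0.38 (adjusted p=0.0930 and 0.0859), and with any other library left out they were between 0.09 and 0.26. A pseudogene copy, Bambi-ps1, had 13 to 30 reads per library, and reads that fit both could have been assigned to either.

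Between 18 h and 24 h, 0 of the 9 genes passed the test in limma with and without the block, in edgeR or in DESeq2, and 0 had an unadjusted p under 0.05 in limma. Few genes of any kind differed between these times, 0.0223% of those tested and 0.0446% with the block, or 1.11% in edgeR with the block. The log2 fold-change from 18 h to 24 h was 0.08 for Smad5 (adjusted p=0.972), and the largest of the 9 in either direction was 0.19.

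The genes whose course over the 9 libraries was most like that of Smad5, among 11893 with a mean of at least 1 FPKM, were Cep170 and Rnf19a. Their root mean square differences from it, in log2(FPKM+0.1) relative to the 0 h mean, were 0.0443 and 0.0622. For Smad6 they were Pip4k2a and Slc43a1, at 0.103 and 0.105. The libraries are shared by all these genes, and the measure describes likeness only.

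Other genes of the pathway were counted by lists, beside the shares of all genes tested, which were 4.27% higher and 3.72% lower at 18 h and 6.52% and 5.11% at 24 h, or with the block 10.8% and 10.7%, then 13.6% and 12.5%. Among 8 other receptors of the TGFβ family, 7 were tested and 0 passed at either time, and with the replicate block Tgfbr1 and Acvr2a were higher (adjusted p=0.0478 and 0.0397) and Amhr2 lower (0.0423) at 24 h, and Acvr1b was lower at 18 h (0.0235). Of 5 co-receptors, 2 were higher at 18 h, or 3 with the block, which adds Rgmb, and 3 were higher at 24 h. Rgma, a BMP co-receptor of the repulsive guidance family, rose at 24 h from 0.259 to 0.830 FPKM (log2 fold-change 1.36, adjusted p=0.00874), and Tgfbr3, or betaglycan, rose from 0.572 to 1.60 (1.35, adjusted p=0.00598). Rgmb, which is of the same family as Rgma, rose from 5.08 to 8.07 FPKM (0.66, adjusted p=0.00964). The other SMADs were tested against 0 h gene by gene, and differences between them were not tested. Smad3, which carries activin and TGFβ signals, rose from 4.55 to 8.97 FPKM at 24 h (0.98, adjusted p=0.00338), Smad2, which shares that role, rose by 0.30 (adjusted p=0.0430), and Smad4 had a log2 fold-change of -0.10 (adjusted p=0.336). At 18 h Smad3 alone of these 3 passed, and 2 passed with the block.

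Of 12 regulators of SMADs and receptors, 2 were higher and 1 lower at 18 h, and 2 were higher and 2 lower at 24 h, or 4 higher and 2 lower with the block at each time. Over all genes the shares higher and lower were 4.27% and 3.72% after 18 h and 6.52% and 5.11% after 24 h, and 10.8%, 10.7%, 13.6% and 12.5% in the same order with the block. Zeb2, a SMAD-binding repressor, rose from 0.355 to 0.979 FPKM at 24 h (1.25, adjusted p=0.0314). Nedd4l, a ubiquitin ligase that targets activated SMADs, fell by 0.54 on the log2 scale (adjusted p=0.0126), and Ppm1a, a phosphatase described for SMADs, fell by 0.27 (adjusted p=0.0392). Among 13 BMP ligands, 9 were tested and Bmp7 alone passed at 18 h and at 24 h, when it was at 14.1 FPKM against 1.16 at 0 h (3.49, adjusted p=5.83e-05). Of 12 antagonists, 7 were tested, and 1 was higher at 18 h and 2 at 24 h, of which Nbl1, a secreted BMP antagonist, rose from 1.45 to 4.99 FPKM at 24 h (1.76, adjusted p=0.00294). The median log2 fold-changes at 24 h were 0.04 for the other receptors, 0.66 for co-receptors, 0.30 for other SMADs, 0.08 for regulators, -0.11 for ligands and 0.18 for antagonists.

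Genes known to respond to BMP made up a list of 15. Of these, 14 were tested, 10 were higher at 18 h and 11 at 24 h, or 12 at each time with the block, and 0 were lower, where 4.27% and 6.52% of all genes were higher, or 10.8% and 13.6% with the block. The list had a median log2 fold-change of 2.001 at 24 h. Id3 was at 14.1 FPKM at 0 h and 257 at 24 h (4.21, adjusted p=8.82e-06), and Id1 was at 35.8 and 213 FPKM (2.62, adjusted p=0.000159). Id proteins bind E proteins and keep them from DNA. Hand1, a trophoblast and mesoderm factor, Cdx2, a trophectoderm factor, and Id4 rose by 3.19, 2.68 and 2.32. The members of this list are also regulated by other signals and factors. By qRT-PCR the paper reports that Id1 rose with induced E2A, as monomer or forced homodimer, and describes this as an apparent feedback response. Whether BMP signalling or E2A raised the genes of this list was not tested. Smad6, Smad7 and Bambi, which are BMP targets as well, had log2 fold-changes of 0.69, -0.27 and 0.19 at 24 h against 0 h.

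**Figure D4:**
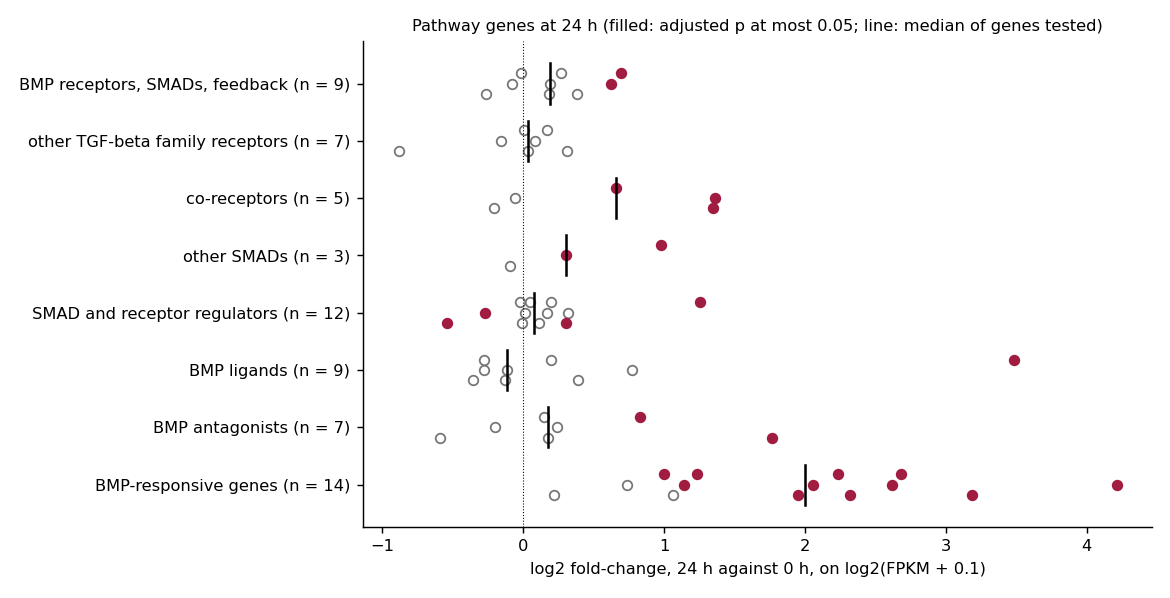
Log2 fold-change at 24 h against 0 h on the log2(FPKM+0.1) scale (horizontal axis) of each tested gene, by list (rows). Filled points have an adjusted p of at most 0.05 and vertical lines are medians. The 9 tested receptor, SMAD and feedback genes lie between -0.27 and 0.69, and the BMP-responsive genes have a median of 2.001.

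Markers of cell types were read beside these results, with the same shares of all genes as for the pathway lists (4.27% higher and 3.72% lower at 18 h, 6.52% and 5.11% at 24 h, and with the block 10.8% and 10.7%, then 13.6% and 12.5%). The 8 ESC markers were all expressed, with a summed level of 1299 to 1975 FPKM at 0 h, 1018 to 1614 at 18 h and 974 to 1586 at 24 h. Of these, Tdgf1 was lower at 18 h, and at 24 h Nanog was higher and Pou5f1 and Tdgf1 lower. Of 6 neuroectoderm markers, 2 were higher at 18 h and 4 at 24 h (Sox1, Foxd4, Neurog3 and Neurod4), and their summed level was 37.5 to 49.6 FPKM at 0 h, 55.6 to 75.97 at 18 h and 61.3 to 88.7 at 24 h. With the block 4 of these were higher at 18 h, and of the ESC markers 2 were higher and 3 lower at each time. Foxd4 and Neurod4 were below 0.1 FPKM in every 0 h library. Pax6 did not pass at either time, and Tubb3 passed at both times with the block and at neither without it. The 4 markers that passed at 24 h without the block moved with Smad5 and Smad6, and their part in the result was not tested. The 7 fibroblast markers summed to 6.99 to 14.7 FPKM at 0 h, 6.04 to 10.3 at 18 h and 6.10 to 10.7 at 24 h, with Thy1 lower at 24 h. With the block Thy1 was lower at 18 h as well (adjusted p=0.0232), and 2 of these markers were lower at 24 h. The 6 primitive endoderm markers summed to 4.31 to 5.31, 4.03 to 4.80 and 5.07 to 6.02 FPKM, mostly from Dab2, at a mean of 4.10, 3.60 and 4.71. Of the 5 that were tested, 0 passed in limma at either time, with or without the block.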

How the data were processed

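Time points and replicate numbers came from the sample titles. The protocol text of the labels gives other dox times, and those of the titles and the design text were used. The authors made strand-specific libraries of polyadenylated RNA, trimmed reads (cutadapt 1.9), aligned them to GRCm38 with STAR and tested with edgeR 3.16.5. How reads were counted is not given in the sources used here. The FPKM values that the authors deposited are scaled for gene length and mapped reads. The authors also deposited a filtered table of 19210 genes with a signal per library, a CPM scaled to an effective library size, from which whole reads were recovered (100% of values within 0.02 read). Its columns of fold-changes, p-values and false discovery rates were not used. No pair of replicates agreed within sampling noise. Depth limits Smad9, Smad6 and Bmpr1b most, and 3 reads were taken as a floor for counting error only.

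The main test was limma 3.58.1 (lmFit, eBayes with trend) in R 4.3.3 on log2(FPKM+0.1) over all 9 libraries, with Benjamini-Hochberg adjustment over the 17951 genes with a mean of at least 0.1 FPKM. This scale understates changes of low genes. The fits in limma, edgeR and DESeq2 without a block were tested on simulated data for 24 h against 0 h only. Without the block, the p-values measure the spread between the replicates, which the paper calls biological. With the block, they measure the spread that is left after shifts shared by a replicate number are taken out. With 3 against 3 libraries an exact permutation test cannot go below 0.1, and none was made. The labels number the replicates alike at each time, and the paper's legend speaks of separate biological experiments. Deviations from the group means correlated at 0.211 to 0.548 between libraries of the same number (9 pairs, 11893 genes) and at -0.399 to 0.110 between different numbers, so the numbers were taken to pair the libraries. edgeR 4.0.16 and DESeq2 1.42.0 were run on the recovered reads as alternatives. Other alternatives were pseudocounts of 1 and 0.01, other filters, scalings and variance priors, fewer libraries, the replicate block and a 2-fold minimum. A fit with no filter and with the replicate block was added for Smad9 after its values were seen.

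The genes and lists were chosen with earlier results of these data known. Named were all 10 genes, Tcf3 and Hprt, list genes that passed with a 2-fold change at 24 h (at most 5 a list), and the 2 genes most like each gene that passed. Other list genes are named after their values were seen. Positions are from GENCODE M21 and promoters from RefSeq. Figures were drawn with matplotlib 3.10.9 in Python 3.11.15.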

Additional observations from a re-analysis of the deposited data

How the results depend on the processing

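Depth and the number of libraries limit what these comparisons can show, most of all for the genes with few reads, Smad9, Smad6 and Bmpr1b. Of 510 values of single genes under alternatives, 464 kept their direction and their side of the threshold, 10 passed newly, 11 no longer passed and 25 changed sign, and the cause of these changes was not tested. The number of the 10 genes that passed at 18 h, 1 in the main test, was 2 with no trend, 2 with the replicate block, 3 in edgeR with the replicate block, 0 with the 2-fold minimum and 0 to 1 with a library of the groups compared left out. At 24 h it was 2, against 1 with no filter, 1 with a mean FPKM of at least 1 (which leaves Smad6 out), 1 after quantile normalization, 1 with only the time points compared, 4 with the replicate block, 6 in edgeR with the replicate block (5 higher and 1 lower), 0 with the 2-fold minimum and 1 with any of the libraries compared left out. Over the pathway lists, 18 of 57 genes tested passed at 18 h, 30 of 63 in edgeR with the replicate block, 11 with the 2-fold minimum and 12 to 20 with a library left out, and 23 at 24 h, 33 in edgeR with the replicate block, 15 with the 2-fold minimum and 17 to 22 with a library left out. Between 24 h and 18 h 0 passed, and 3 in edgeR with the replicate block. Of all genes, 13.9% were higher and 13.1% lower at 18 h, 16.4% and 14.9% at 24 h and 1.11% either way between 24 h and 18 h in edgeR with the replicate block, and 2.06% and 2.9% passed the 2-fold minimum at 18 h and 24 h. In limma the replicate block changed the calls of Bmpr2 at both times and Bmpr1a at 24 h and no other call of the 10 genes.

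The changes of sign were in values near 0. At 24 h against 18 h, Bmpr1b was -0.0289 after quantile normalization, and Bambi was -0.0369 after quantile normalization, -0.0111 with median centring, -0.0056 in edgeR, -0.0043 in edgeR with the replicate block and -0.0085 in DESeq2. With a library left out, the log2 fold-change ranged from -0.0551 to 0.18 for Acvr1 and from -0.0165 to 0.18 for Smad1 at 18 h, and from -0.21 to 0.11 for Bmpr1b and from -0.0932 to 0.0875 for Smad1 at 24 h. At 24 h against 18 h it ranged from -0.0837 to 0.21 for Bmpr1b, -0.0509 to 0.20 for Bmpr2, -0.19 to 0.0282 for Smad1, -0.15 to 0.0386 for Smad7 and -0.0663 to 0.0768 for Bambi.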
